A study of Homo sapiens with 12 samples.

Results

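The class I branch of antigen presentation was followed through 9 genes in SW48, an established human colorectal cancer cell line with microsatellite instability. The genes were HLA-B, HLA-C, HLA-E, HLA-F, B2M, TAP1, TAP2, TAPBP and PSMB9, and every probe that the platform annotation assigns to one of these symbols was taken. This gave 16 of the 48801 probes of the Illumina HumanWG-6 v3 array, a bead array that returns 1 fluorescence signal per probe. Of the 16, 11 were detected on enough arrays to be tested, at least 1 for each gene, among 13915 tested probes in all. The 12 arrays formed 4 groups of 3. The combined group had received 5'-Aza-cytidine (azacytidine, an inhibitor of DNA methyltransferases) at 1 µM for 5 days and then Trichostatin A (TSA, an inhibitor of histone deacetylases) at 0.5 µM for 2 days. The azacytidine group had received 1 µM azacytidine alone for 5 days, the TSA group 0.5 µM TSA alone for 2 days, and the control group was non-treated. Treatment times differed between the groups, and a difference in time in culture cannot be told apart from the drugs. All arrays measured this single cell line. Whether the 3 replicates of a group were grown separately is not stated, so their spread may be technical.

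MHC class I molecules display peptides from inside the cell to CD8 T cells. A polymorphic heavy chain pairs with beta-2 microglobulin, the product of B2M, and receives its peptide in the endoplasmic reticulum. The proteasome cuts the peptides, the TAP1 and TAP2 transporter carries them across the membrane, and tapasin, the product of TAPBP, holds the empty class I molecule at the transporter while peptides are selected. Interferons raise the transcription of most of these genes, and loss of class I display is a known feature of many colorectal cancers with microsatellite instability.

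Azacytidine moved the class I genes unevenly. With azacytidine alone, HLA-B, HLA-C, HLA-E, TAP2 and TAPBP fell, 1 of the 2 HLA-F probes fell, and TAP1 rose. The HLA-E call was lost without 4 of the 12 arrays in turn. Followed by TSA, azacytidine left TAPBP lower still, and TAP1 was lower and HLA-E and the other HLA-F probe were higher than with azacytidine alone. TAP2 was also called lower in that comparison, a call that was lost without 6 of the 12 arrays in turn. Under median scaling only TAPBP and TAP1 passed in that comparison. With TSA alone none of the 11 probes passed the test. PSMB9 did not pass the test in any comparison.

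The reference promoters of the members that these results turn on are printed here so that the sequence elements shared by members can be set beside the measured changes. They are RefSeq windows of the assembly GRCh38.p14 that run from 250 bases before an annotated start to 50 bases after it, and 8 of the 9 members have such a window. HLA-B (chr6:31357130-31357429, minus strand) stands for the heavy chains, B2M (chr15:44711267-44711566, plus strand) is the light chain, TAPBP (chr6:33314029-33314328, minus strand) is the member that fell most, TAP1 (chr6:32853655-32853954, minus strand, the upstream of its 2 starts) is the member that rose, and PSMB9 (chr6:32853942-32854241, plus strand) is its divergent neighbour. Capitals mark matches to an interferon response element, searched on both strands as GAA or GAAA, then any pair of bases, then GAAA.
HLA-B: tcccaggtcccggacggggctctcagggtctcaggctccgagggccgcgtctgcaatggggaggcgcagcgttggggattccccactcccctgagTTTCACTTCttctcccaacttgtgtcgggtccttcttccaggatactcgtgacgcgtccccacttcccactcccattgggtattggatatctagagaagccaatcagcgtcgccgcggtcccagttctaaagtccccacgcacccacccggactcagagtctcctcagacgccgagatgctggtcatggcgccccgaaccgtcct
B2M: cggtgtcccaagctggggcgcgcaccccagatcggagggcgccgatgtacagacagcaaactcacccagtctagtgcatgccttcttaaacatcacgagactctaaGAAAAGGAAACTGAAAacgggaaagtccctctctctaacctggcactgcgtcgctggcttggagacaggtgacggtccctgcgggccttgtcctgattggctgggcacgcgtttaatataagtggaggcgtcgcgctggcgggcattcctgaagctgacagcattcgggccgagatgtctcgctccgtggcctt
TAPBP: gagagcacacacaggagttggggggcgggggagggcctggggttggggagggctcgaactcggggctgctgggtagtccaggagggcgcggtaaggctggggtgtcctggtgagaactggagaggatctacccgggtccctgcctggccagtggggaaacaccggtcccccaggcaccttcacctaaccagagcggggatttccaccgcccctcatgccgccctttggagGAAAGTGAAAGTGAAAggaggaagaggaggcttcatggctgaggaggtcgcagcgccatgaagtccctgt
TAP1: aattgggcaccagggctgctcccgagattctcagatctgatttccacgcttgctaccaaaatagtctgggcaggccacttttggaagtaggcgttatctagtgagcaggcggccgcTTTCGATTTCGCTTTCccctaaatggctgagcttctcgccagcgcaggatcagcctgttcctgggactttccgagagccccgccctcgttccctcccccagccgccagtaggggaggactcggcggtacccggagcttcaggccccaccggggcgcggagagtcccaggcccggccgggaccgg
PSMB9: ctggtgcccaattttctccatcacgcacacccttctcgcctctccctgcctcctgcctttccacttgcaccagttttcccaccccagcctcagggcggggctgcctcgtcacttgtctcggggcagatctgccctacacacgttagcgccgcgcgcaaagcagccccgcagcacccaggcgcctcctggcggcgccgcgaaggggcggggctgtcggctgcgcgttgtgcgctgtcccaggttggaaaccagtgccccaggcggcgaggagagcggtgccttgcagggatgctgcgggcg

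The interferon response element was found in the windows of 7 of the 8 members, and 10.6% of all 34943 promoter windows hold either form (7.66% hold the form that opens with GAA and 3.57% the form that opens with GAAA). In TAPBP, B2M, TAP1 and TAP2 a pair of matches overlapped. In HLA-B, HLA-C and HLA-F the match began 151 to 156 bases before the start, whereas in TAPBP it lay within the last 20 bases before the start. The PSMB9 window held no match, which says only that these letters are not in this window. The NF-kappaB-like letters, GGG, any pair of bases, TT, any base and CC, found in 5.67% of all windows, occurred in HLA-B, B2M, TAPBP and the upstream TAP1 window. CCAAT, the box bound by NF-Y and present in 34.6% of all windows, occurred 3 times in HLA-B, 4 times in HLA-C and 2 times in HLA-F, and it occurred once each in B2M, the upstream TAP1 window and PSMB9. TGACG, a CRE-like core present in 24.5% of all windows, occurred in HLA-B, HLA-C, B2M, TAP2 and PSMB9. None of these other letters overlapped an interferon response element in the windows searched.

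Each window also holds CpG dinucleotides, the sites at which DNA methyltransferases act. The counts were 22 in HLA-B, 19 in HLA-C, 17 in HLA-F, 22 in B2M, 22 in the upstream TAP1 window, 24 in TAP2, 12 in TAPBP and 26 in PSMB9. The median over all windows was 14, with quartiles of 4 and 28. TAPBP, the member that fell most, thus had the fewest CpG of the 8 members with a window, apart from the downstream TAP1 window with 11. TAP2 and HLA-C, with the next largest falls in combined against control (-0.99 and -0.95, sizes that depended on the processing), had 24 and 19. A relation between CpG count and change was not tested. The upstream TAP1 start and the PSMB9 start point away from each other, lie 488 bases apart, and have windows that share 13 bases. TAP1 rose with azacytidine and PSMB9 was not called. Methylation itself was not measured on these arrays.

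**Figure D1:**
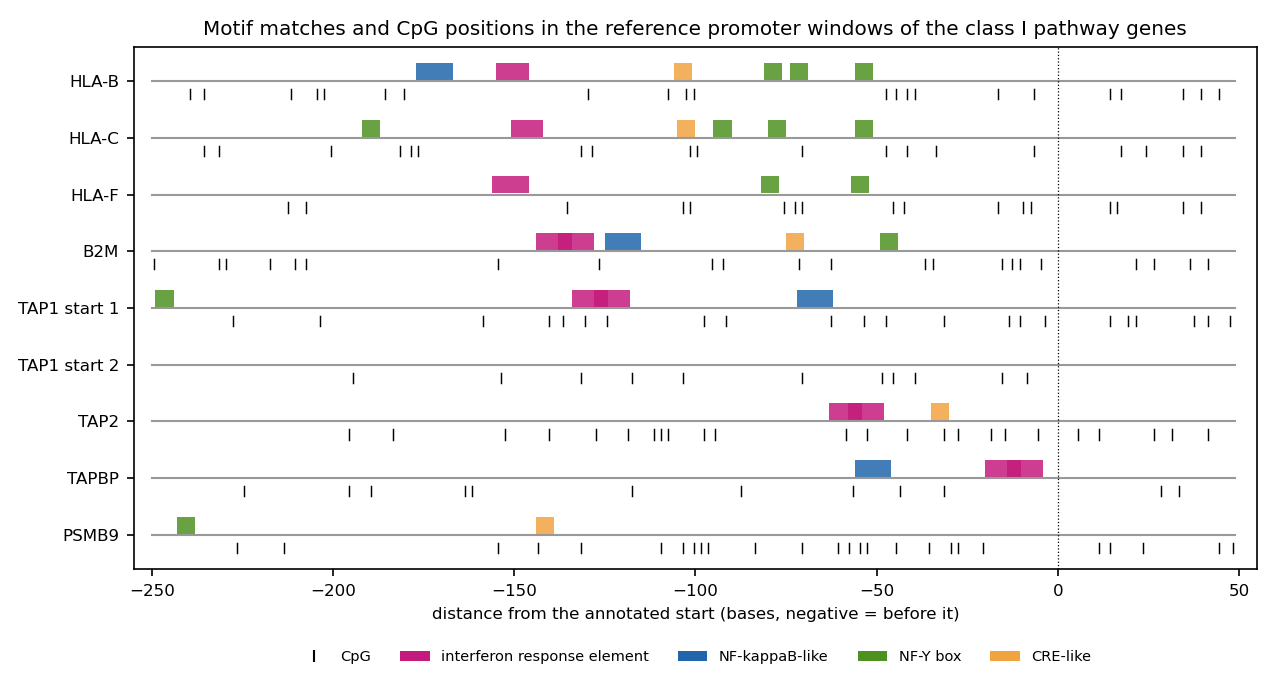
Positions of motif matches (coloured boxes) and CpG dinucleotides (ticks below each line) in the reference promoter windows of 8 class I pathway genes, plotted as distance in bases from the annotated start, with TAP1 shown for both its starts. The interferon response element lies 151 to 156 bases before the start in the 3 heavy chain genes and next to the start in TAPBP, and it is missing from the PSMB9 window and the downstream TAP1 window.

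The number of arrays, 3 a group, limits the precision of every value below. Probes detected numbered 12471 to 13647 on combined arrays, 12495 to 13297 on azacytidine arrays, 11932 to 12761 on TSA arrays and 11742 to 11963 on control arrays, and log2 signals of arrays in 1 group correlated at 0.991 to 0.996 across probes. The arrays lay on 2 chips of 6. Chip 1 carried 1 combined, 1 azacytidine, 2 TSA and 2 control arrays, and chip 2 the others, so chip is partly aligned with treatment and values within each chip are given below. Of 10 colorectal epithelium markers, EPCAM, CDH1, KRT8, KRT18, KRT19 and CDX2 were detected on all arrays, while KRT20, VIL1 and LGALS4 were detected on none. CDX1 was detected on 1 combined array only. The summed signal of the 10 was 29250 to 34359 on combined, 27300 to 30196 on azacytidine, 36941 to 45291 on TSA and 37666 to 42030 on control arrays. The sum is weighted to the brightest markers. CDX2 went the other way, with mean log2 signals of 10.91 and 11.36 on combined and azacytidine arrays, and 9.80 and 9.88 on TSA and control arrays. CDH1 averaged 11.60 on combined and 11.61 on control arrays. Of 8 fibroblast markers, THY1 was detected on all combined and azacytidine arrays and on no TSA or control array. COL1A1 and PDGFRB were each detected on 1 combined array only, and COL1A2, COL3A1, FAP, DCN and LUM on no array. The sums were 549.06 to 626.36, 352.82 to 377.64, 259.34 to 261.46 and 255.19 to 266.49 in the order combined, azacytidine, TSA and control. Of 8 immune markers, CD68 was detected on all arrays, CD14 on the combined and azacytidine arrays only, and CD79A on 1 combined array only. PTPRC, CD3E, LYZ, ITGAM and HLA-DRA were detected on none. The immune sums in the same order were 6561.5 to 7322.3, 5173.4 to 5667.9, 4561.7 to 5552.8 and 4577 to 5858.5. The part of these shifts in the class I results was not tested, and in bulk RNA fewer cells of a type and less RNA per cell cannot be told apart.

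HLA-B, a classical heavy chain that presents peptides to CD8 T cells, fell in both groups that had received azacytidine. Its normalized log2 signal was 11.62, 11.83 and 11.66 on the combined arrays, 11.69, 11.78 and 11.76 on the azacytidine arrays, 12.35, 12.31 and 12.28 on the TSA arrays, and 12.45, 12.26 and 12.11 on the control arrays. All 6 arrays with azacytidine were below all 6 arrays without it. The log2 change was -0.57 ± 0.09 (SE) for combined against control, a 1.49-fold fall with an adjusted p of 0.000125 by limma with Benjamini-Hochberg adjustment over 13915 probes, and -0.53 ± 0.09 (1.45-fold) for azacytidine against control with an adjusted p of 0.000278. Combined and azacytidine arrays overlapped, and their difference of -0.04 had a 95% confidence interval of -0.24 to 0.16. Within chip 1 and chip 2 the change was -0.74 and -0.37 for combined against control, and -0.66 and -0.34 for azacytidine against control. The last of these, on chip 2 alone, had an adjusted p of 0.0592, and with chip as a block the 2 changes were -0.57 and -0.52.

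HLA-C, the other classical heavy chain measured and also a ligand of natural killer cell receptors, fell in the same 2 groups. Probe 1 read 6.78, 6.67 and 6.86 on combined arrays, 6.86, 7.19 and 7.10 on azacytidine arrays, 7.47, 7.52 and 7.75 on TSA arrays, and 7.88, 7.68 and 7.60 on control arrays. The arrays with azacytidine again lay below all arrays without it. The change was -0.95 ± 0.11 for combined against control (adjusted p = 7.89e-06) and -0.67 ± 0.11 for azacytidine against control (adjusted p = 0.00019). The further difference of combined against azacytidine, -0.28 ± 0.11, did not pass (adjusted p = 0.0741), and combined replicate 3 lay just below azacytidine replicate 1. Within chips the change was -0.99 and -0.84 for combined against control, and -0.92 and -0.46 for azacytidine against control. The probe was dim, and the size of its fall depended on the processing. In the authors' processed values it read 8.08, 8.04 and 8.11 on combined arrays, and 8.57, 8.47 and 8.43 on control arrays, which lie closer together. HLA-C probe 2 was detected on no array and was not tested.

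The 2 nonclassical heavy chains each had a probe that was higher in combined than in azacytidine arrays. HLA-E, which presents signal peptides of other class I chains to the inhibitory receptor NKG2A, read 9.66, 9.71 and 9.78 on combined arrays, 9.34, 9.32 and 9.31 on azacytidine arrays, 9.62, 9.42 and 9.63 on TSA arrays, and 9.51, 9.81 and 9.46 on control arrays. Azacytidine arrays were the lowest of the 4 groups and overlapped no other group, while combined arrays lay within the control range. HLA-E fell by 0.27 ± 0.10 with azacytidine against control (adjusted p = 0.0318), and was higher by 0.39 ± 0.10 in combined against azacytidine (adjusted p = 0.00893). The fall did not hold under several alternatives. It was -0.16 with an adjusted p of 0.156 without control replicate 2, and -0.32 and -0.14 within chip 1 and chip 2, where neither passed. It also did not pass when only the 2 groups compared were fitted (adjusted p = 0.0645), without a filter on dim probes (0.0836), or without any of the 3 azacytidine arrays in turn (0.0564 to 0.0767). The gain of combined over azacytidine was 0.31 on chip 1, where it did not pass (adjusted p = 0.392), and 0.43 on chip 2. The difference of combined against control was 0.12, with a 95% confidence interval of -0.09 to 0.34.

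HLA-F, a nonclassical heavy chain expressed on activated lymphocytes and bound by natural killer receptors, was read by 2 probes that gave opposite calls. Probe 1 read 7.73, 7.79 and 7.94 on combined arrays, 7.30, 7.06 and 7.28 on azacytidine arrays, 7.15, 7.36 and 7.63 on TSA arrays, and 7.67, 7.41 and 7.36 on control arrays. Probe 2 read 11.32, 11.29 and 11.45 on combined arrays, 11.11, 11.35 and 11.40 on azacytidine arrays, 11.78, 11.77 and 11.88 on TSA arrays, and 11.82, 11.97 and 11.86 on control arrays. Combined arrays were thus above every other array by probe 1 and below every TSA and control array by probe 2. Against control, combined treatment changed probe 1 by 0.34 ± 0.13 (adjusted p = 0.0328) and probe 2 by -0.53 ± 0.09 (adjusted p = 0.0002). Azacytidine alone changed probe 2 by -0.60 ± 0.09 (adjusted p = 9.1e-05), while the -0.27 of probe 1 did not pass (adjusted p = 0.0856). The probe 1 change of combined against control was 0.19 on chip 1 and 0.50 on chip 2, and did not pass on chip 1 (adjusted p = 0.381), under median scaling (0.16, adjusted p = 0.465), without a filter (adjusted p = 0.0831), or without control replicate 2 or 3 or combined replicate 2 or 3 (0.0559 to 0.112). The probe 2 change was -0.58 and -0.49 within the chips for combined against control, and -0.78 and -0.48 for azacytidine against control. No direction is given for HLA-F as a gene.

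Class I heavy chain genes are close copies of each other, and the signal of 1 probe may include transcripts of a related gene. The probe sequences were not used here, so values of single heavy chains are uncertain in that respect. HLA-H, a pseudogene, and HLA-G, a nonclassical heavy chain, were the only others of 5 further class I genes and pseudogenes that could be tested. HLA-H fell by 0.58 in combined against control and by 0.60 in azacytidine against control (adjusted p = 0.000145 and 0.000141), and HLA-G fell by 0.27 and 0.61 (adjusted p = 0.0244 and 0.000118).

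B2M encodes the light chain that every class I heavy chain needs to reach the cell surface. Probe 1 read 9.73, 9.82 and 9.89 on combined arrays, 9.90, 10.07 and 10.05 on azacytidine arrays, 10.44, 10.43 and 10.44 on TSA arrays, and 9.98, 10.31 and 10.37 on control arrays. Probe 2 read 11.40, 11.41 and 11.49 on combined arrays, 11.43, 11.56 and 11.45 on azacytidine arrays, 11.81, 11.70 and 11.73 on TSA arrays, and 11.47, 11.66 and 11.72 on control arrays. Both probes had the combined arrays lowest on average and the TSA arrays highest, and control replicate 1 was the lowest control array on both. Combined against TSA, B2M fell by 0.62 ± 0.10 on probe 1 (adjusted p = 0.000133) and by 0.31 ± 0.08 on probe 2 (adjusted p = 0.00467). Combined against control, the change was -0.41 ± 0.10 on probe 1 (adjusted p = 0.00319) and -0.18 ± 0.08 on probe 2, which did not pass (adjusted p = 0.069). Azacytidine alone gave -0.21 and -0.14 against control, and neither passed (adjusted p = 0.0846 and 0.168).

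These B2M calls depended on the control arrays and on the chip. Without control replicate 1 the azacytidine changes were -0.33 and -0.21 on probes 1 and 2, with adjusted p of 0.00519 and 0.0411, and the combined change on probe 2 was -0.25 (adjusted p = 0.0156). With chip as a block, probe 1 changed by -0.26 with azacytidine (adjusted p = 0.0236) and probe 2 by -0.20 with combined treatment (adjusted p = 0.0337). Within chip 1 and chip 2, probe 1 changed by -0.41 and -0.52 for combined against control, the first with an adjusted p of 0.0798. For combined against TSA, the 2 chips gave -0.70 and -0.59 on probe 1, and -0.35 and -0.28 on probe 2, where neither chip alone passed.

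TAP1, the transporter subunit that forms a heterodimer with TAP2, was the member that rose with azacytidine. It read 11.95, 11.83 and 11.85 on combined arrays, 12.14, 12.37 and 12.27 on azacytidine arrays, 11.44, 11.50 and 11.41 on TSA arrays, and 11.53, 11.51 and 11.57 on control arrays. No 2 groups overlapped, and the order from high to low was azacytidine, combined, control and TSA, of which only control and TSA were not called different. TAP1 rose by 0.72 ± 0.08 with azacytidine against control, which is 1.65-fold (adjusted p = 4.58e-06). It was lower by 0.38 ± 0.08 in combined against azacytidine (adjusted p = 0.00237). The rise of combined against control was 0.34 ± 0.08 (adjusted p = 0.00182) and of combined against TSA 0.42 ± 0.08 (adjusted p = 0.000344), but with median scaling in place of quantile normalization these 2 changes turned to -0.08 and -0.09 (adjusted p = 0.688 and 0.661). Under that scaling the median of all probes was -0.33 and -0.45 in these comparisons, so TAP1 lay 0.25 and 0.36 above it. The rise with azacytidine alone was 0.51 under median scaling, 0.62 on chip 1 and 0.75 on chip 2. Combined against control gave 0.43 on chip 1 and 0.27 on chip 2, the second with an adjusted p of 0.0779, and combined against azacytidine gave -0.19 and -0.48, the first with an adjusted p of 0.438.

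TAP2, the partner subunit, went the other way. Probe 2 read 6.54, 6.99 and 7.09 on combined arrays, 7.18, 7.29 and 7.23 on azacytidine arrays, 7.76, 7.86 and 8.03 on TSA arrays, and 7.83, 7.84 and 7.92 on control arrays. Every array with azacytidine was below every array without it. TAP2 fell by 0.99 ± 0.13 in combined against control, which is 1.99-fold (adjusted p = 1.44e-05), and by 0.63 ± 0.13 with azacytidine against control (adjusted p = 0.000729). Within chips these changes were -1.30 and -0.88, and -0.66 and -0.66. Like HLA-C probe 1, this probe was dim, and the size of its fall depended on the processing. In the authors' processed values it read 8.001, 8.159 and 8.199 on combined arrays, and 8.547, 8.551 and 8.595 on control arrays. The 2 groups lie closer together in those values. The further fall of 0.36 ± 0.13 in combined against azacytidine (adjusted p = 0.0423) rested on combined replicate 1, without which it was -0.19 (adjusted p = 0.161), and it passed on neither chip alone. It also did not pass without any of 5 other arrays (adjusted p of 0.0535 to 0.118), under median scaling, under cyclic loess, without background correction, in the authors' processed values, with only the 2 groups compared or under either other filter on dim probes (0.0589 to 0.174). TAP2 probe 1 was detected on no array and was not tested.

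TAPBP, the tapasin gene, fell most among the 11 tested probes. Probe 1 read 8.36, 8.31 and 8.32 on combined arrays, 8.99, 9.04 and 8.90 on azacytidine arrays, 9.61, 9.59 and 9.82 on TSA arrays, and 10.00, 9.78 and 9.67 on control arrays. Combined arrays were lowest, azacytidine arrays came next without overlap, and TSA and control arrays overlapped above them. The change was -1.49 ± 0.10 in combined against control, a 2.81-fold fall (adjusted p = 2.78e-08), and -0.84 ± 0.10 with azacytidine against control, a 1.79-fold fall (adjusted p = 7.74e-06). Combined against azacytidine, TAPBP fell by 0.65 ± 0.10 (adjusted p = 0.000268), and combined against TSA by 1.34 ± 0.10 (adjusted p = 7.38e-08). Within chip 1 and chip 2 the change was -1.53 and -1.36 for combined against control, -0.90 and -0.70 for azacytidine against control, and -0.63 and -0.66 for combined against azacytidine, which on chip 1 alone did not pass (adjusted p = 0.0781). TAPBP probes 2 and 3 were detected on no array and were not tested.

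PSMB9 encodes an interferon-inducible catalytic subunit that replaces a constitutive one in the immunoproteasome. Probe 2 read 8.14, 8.86 and 8.44 on combined arrays, 8.17, 8.54 and 8.59 on azacytidine arrays, 8.49, 8.49 and 8.54 on TSA arrays, and 8.55, 8.63 and 8.65 on control arrays. The combined and azacytidine arrays spread wider than the others, and the lowest of each was the array on chip 1. The difference was -0.13 in combined against control, with a 95% confidence interval of -0.47 to 0.20, and -0.18 with azacytidine, with an interval of -0.51 to 0.16 (adjusted p = 0.456 and 0.335). The chips differed, with -0.46 and -0.42 on chip 1 (adjusted p = 0.0205 and 0.0304) and changes of 0.00 and -0.08 on chip 2 for the same comparisons. Without combined replicate 2 the combined change was -0.32 (adjusted p = 0.0451). TAP1, which shares the divergent promoter region, had an interval of 0.55 to 0.89 with azacytidine, and the difference between the 2 genes was not itself tested. PSMB9 probe 1 was detected on no array and was not tested.

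**Figure D2:**
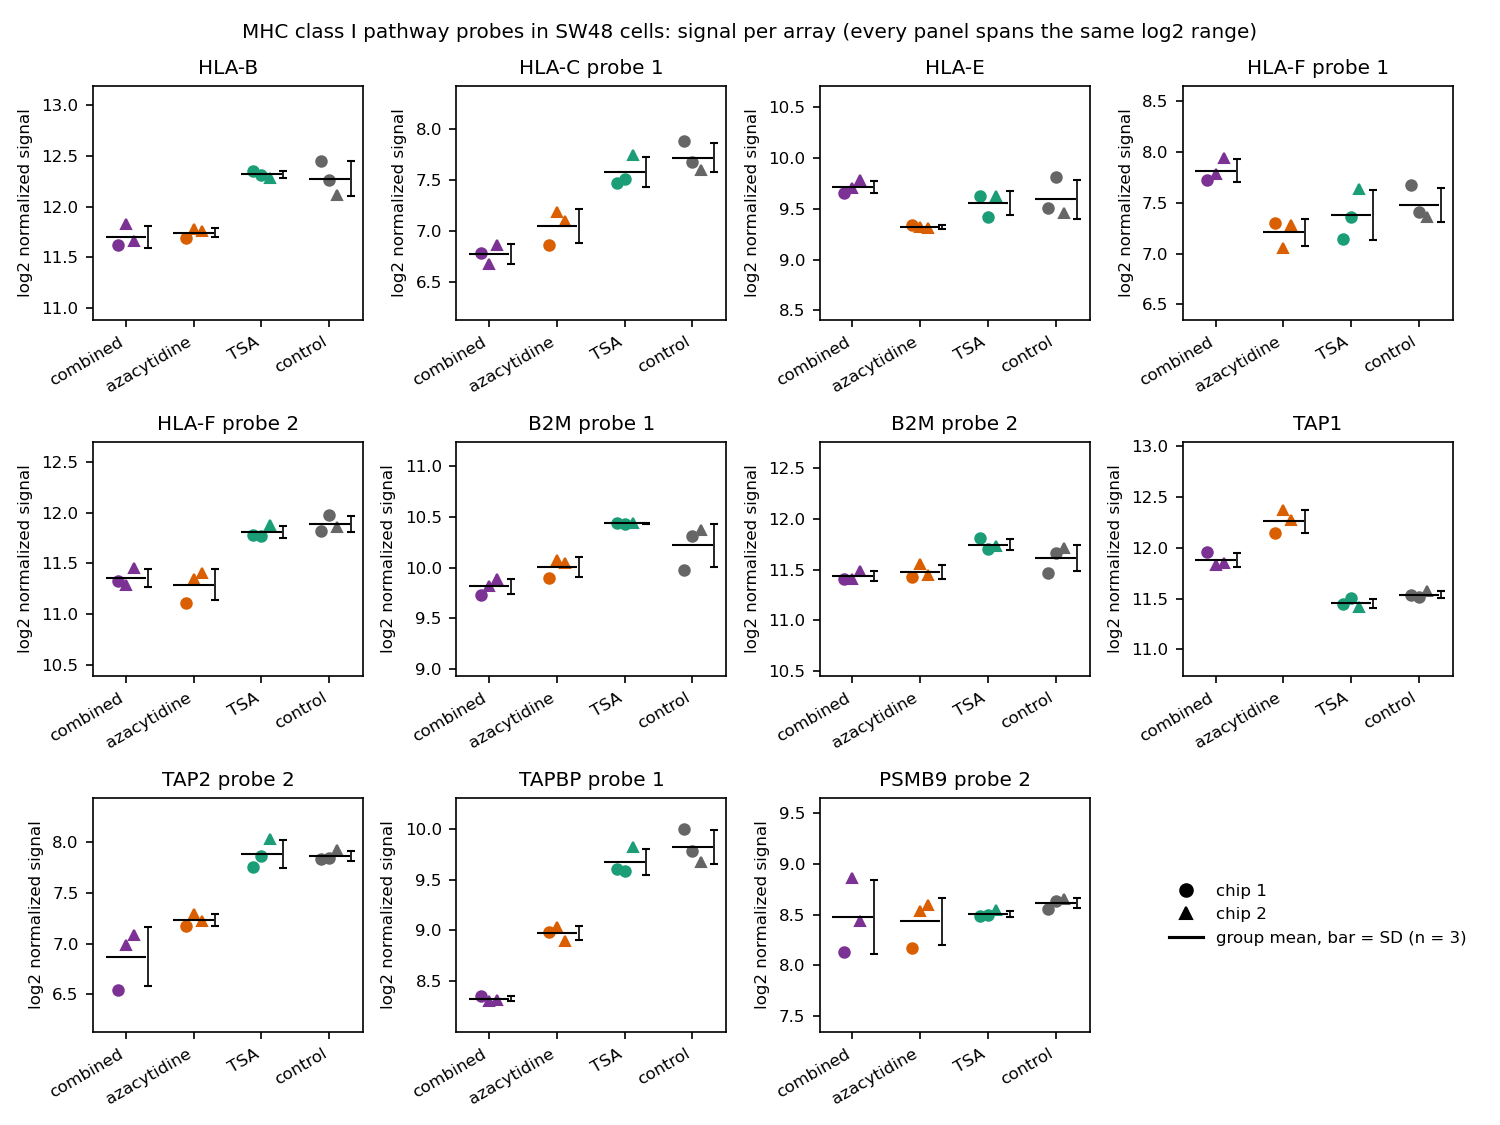
Normalized log2 signal of the 11 tested probes on each of the 12 arrays, with circles for chip 1, triangles for chip 2, and the group mean with its SD (n = 3). TAPBP is lowest on the combined arrays, next lowest on the azacytidine arrays and highest on the TSA and control arrays, TAP1 is highest on the azacytidine arrays, and the combined arrays lie above all others for HLA-F probe 1 and below the TSA and control arrays for HLA-F probe 2.

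Counted over the 11 probes, 2 rose and 6 fell in combined against control, where 68.6% of all 13915 probes were called (30.8% higher and 37.8% lower). With azacytidine against control 1 rose and 6 fell, where 62.3% of all probes were called (30.2% higher and 32.1% lower). The members were therefore called about as often as the array as a whole, and their balance leaned to the lower side. This lean was not tested. HLA-F and B2M each count with 2 probes, and the members were chosen with earlier results of these data known. The median change over the 11 was -0.41 in combined against control and -0.27 with azacytidine, beside -0.07 and -0.02 over all probes. Arrays of the groups did not overlap for 8 of 11 probes in both comparisons, against 70.5% and 65.2% of all probes. Both comparisons used the same control arrays.

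TSA alone called none of the 11 probes by limma, and none had an unadjusted p under 0.05. The background was also low, with 0.101% of all probes called (0.0934% higher and 0.00719% lower). Changes ran from -0.15 for TAPBP to 0.21 for B2M probe 1, the 95% confidence intervals lay between -0.44 and 0.43, and the adjusted p-values were 0.647 to 0.982. The arrays of the 2 groups did not overlap for B2M probe 1, TAP1 and PSMB9, which is 3 of 11 against 11.7% of all probes.

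**Figure D3:**
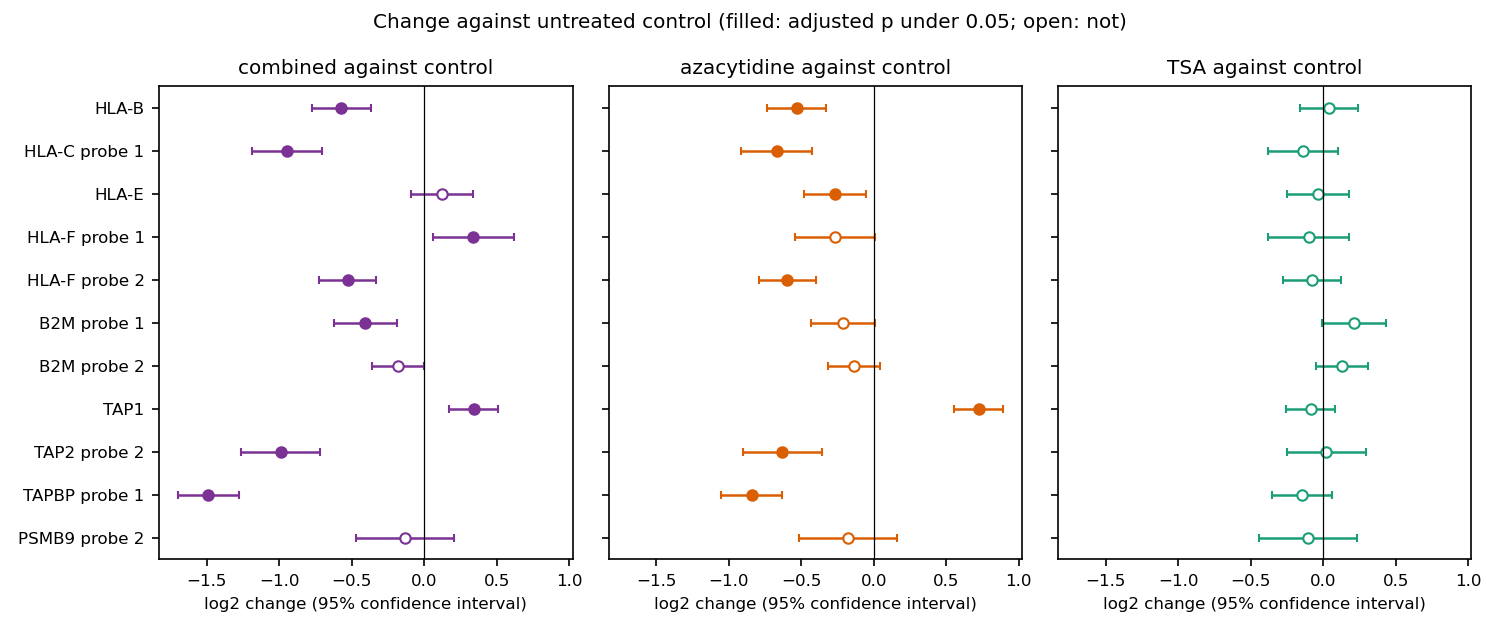
Log2 change against control of the 11 tested probes with 95% confidence intervals, in combined, azacytidine and TSA arrays, filled where the adjusted p was under 0.05. The combined and azacytidine panels hold mostly negative changes with TAP1 to the right, and every interval in the TSA panel spans 0.

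TSA after azacytidine was compared with azacytidine alone to ask what the inhibitor added. HLA-E and HLA-F probe 1 were higher and TAP1, TAP2 and TAPBP lower, so 2 rose and 3 fell of 11, where 33.8% of all probes were called (14.8% higher and 19% lower). HLA-F probe 1 was higher by 0.61 ± 0.13 (adjusted p = 0.00304), with 0.43 on chip 1, where it did not pass (adjusted p = 0.235), and 0.69 on chip 2. HLA-B, HLA-F probe 2, both B2M probes and PSMB9 had differences of -0.19 to 0.07 and were not called. Under median scaling TAP1 (-0.59) and TAPBP (-0.77) alone passed. Arrays of the groups did not overlap for 7 of 11 probes, against 47.9% of all probes.

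Azacytidine followed by TSA was also set against TSA alone, which gives the change with azacytidine in the presence of TSA. Here 2 rose and 7 fell of 11, where 69.1% of all probes were called (30.9% higher and 38.2% lower). HLA-B fell by 0.61, HLA-C by 0.81, HLA-F probe 2 by 0.45, TAP2 by 1.01, and HLA-F probe 1 rose by 0.44 ± 0.13 (adjusted p = 0.00859), which under median scaling was 0.13 and did not pass (adjusted p = 0.552). Within chip 1 and chip 2 these changes were -0.71 and -0.54 for HLA-B, -0.71 and -0.98 for HLA-C, -0.45 and -0.50 for HLA-F probe 2, -1.27 and -0.99 for TAP2, and 0.47 and 0.23 for HLA-F probe 1, which passed on neither chip. HLA-E, at 0.16, and PSMB9, at -0.03, were not called (adjusted p = 0.173 and 0.871). Arrays of the groups did not overlap for 10 of 11 probes, against 72.9% of all probes.

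Whether the azacytidine change differed with and without TSA was tested as an interaction, the change of combined against TSA minus the change of azacytidine against control. The interaction was called for 3 of 11 probes, 2 higher and 1 lower, where 21.1% of all probes were called (10.4% higher and 10.7% lower). HLA-F probe 1 gave 0.71 ± 0.18 (adjusted p = 0.0156), HLA-E 0.43 ± 0.14 (adjusted p = 0.0479) and TAPBP -0.50 ± 0.14 (adjusted p = 0.0206). For HLA-E and HLA-F probe 1 the change with azacytidine was thus higher with TSA than without it, although the change of HLA-E with TSA and that of HLA-F probe 1 without TSA were not themselves called, and for TAPBP the fall was larger with TSA. B2M probe 1 (-0.41, adjusted p = 0.0619) and TAP1 (-0.30, adjusted p = 0.0734) did not pass, and with chip as a block they did (adjusted p = 0.0277 and 0.0485), as did TAP2 (-0.38, adjusted p = 0.046). Within a single chip no interaction passed, with 0.71 and 0.42 for HLA-F probe 1, 0.45 and 0.26 for HLA-E, and -0.34 and -0.80 for TAPBP on chip 1 and chip 2.

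**Figure D4:**
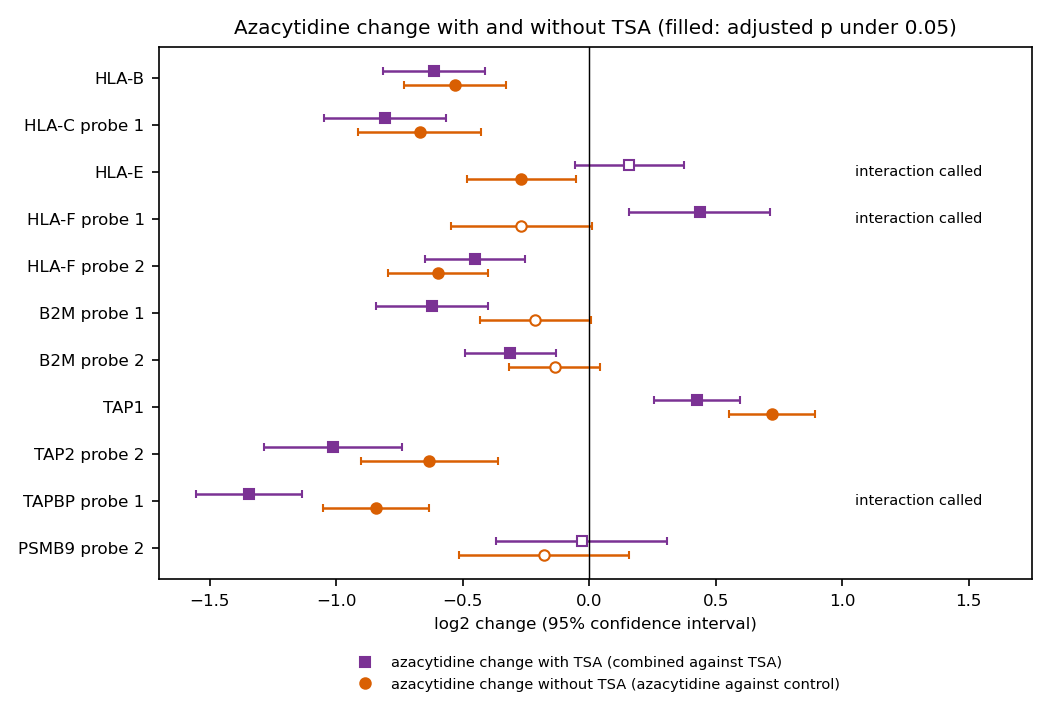
Log2 change with azacytidine in the presence of TSA (combined against TSA, squares) and without TSA (azacytidine against control, circles) for the 11 tested probes, with 95% confidence intervals and filled symbols where the adjusted p was under 0.05. The estimates lie on opposite sides of 0 for HLA-E and HLA-F probe 1, each with 1 of the 2 intervals spanning 0, and apart on the same side for TAPBP.

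The members resembled each other to different degrees over the 12 arrays. Likeness was measured as the root mean square difference of log2 signals after each probe was centred on its own mean, a description over arrays that share chips and treatments. The closest of the 55 pairs were the 2 B2M probes (0.13), HLA-B with HLA-F probe 2 (0.14), and HLA-C with TAP2 (0.17). The farthest were TAP1 with TAPBP (0.85), HLA-F probe 1 with TAPBP (0.75) and TAP1 with TAP2 (0.72). Among all named genes outside the members, the closest to HLA-B was GTF2F1 (0.0651), to TAP1 TWNK (0.0544), to TAP2 TRAPPC13 (0.0915), to TAPBP PKN3 (0.0894), to HLA-C IAH1 (0.103) and to HLA-E CCDC28A (0.0825). The closest to B2M were MCM6 for probe 1 (0.0478) and H3-5 for probe 2 (0.0373), and to HLA-F they were CHD2 for probe 1 (0.117) and XRCC1 for probe 2 (0.0786).

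The proteasome genes around PSMB9 rose more often than they fell with azacytidine, and fewer of them passed under median scaling. Of 9 tested, 5 rose and 1 fell in combined against control, and 6 rose and none fell with azacytidine, with medians of 0.22 and 0.27, where 68.4% and 62.7% of all 9484 genes were called (32.5% and 32% higher, 36% and 30.8% lower) and the medians of all genes were -0.04 and 0.01. PSMB10, the catalytic immunoproteasome subunit that is the counterpart of PSMB9 at another site, rose by 0.69 in combined and by 1.17 in azacytidine against control (adjusted p = 1.81e-05 and 1.78e-07). POMP, the proteasome maturation factor, rose by 0.97 and 0.96, and PSMB6, the constitutive subunit that PSMB9 replaces, by 0.37 and 0.51. PSME2, a subunit of the PA28 activator, rose by 0.75 with azacytidine, and its 0.19 with combined treatment did not pass (adjusted p = 0.0519). PSMB8, the remaining immunoproteasome subunit, fell by 0.48 in combined against control on its brightest probe (adjusted p = 0.000194). Its 3 tested probes ranged from -1.36 to -0.48 in that comparison. With azacytidine they ranged from -0.78 to -0.12, and the brightest was not called. Under median scaling the combined list turned to 1 higher and 2 lower with a median of -0.19, PSMB5 and PSMB7 changed sign, and PSMB10 (0.28) and PSMB6 (0.01) were not called. The azacytidine list then held 3 higher and none lower with a median of 0.11, and the 3 were PSMB10, POMP and PSME2.

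Peptide trimming and loading genes went in both directions. Of 6 tested, 1 rose and 3 fell in combined against control, with a median of -0.35, and 2 rose and 2 fell with azacytidine, with a median of 0.15 that turned to -0.05 under median scaling, where none rose in either comparison and 4 and 2 fell. Of all genes tested, 68.4% and 62.7% were called in these comparisons (32.5% and 32% higher, 36% and 30.8% lower). The number of listed genes called was near this background. NPEPPS and TPP2, cytosolic peptidases, fell by 0.66 and 0.41 in combined and by 0.63 and 0.60 in azacytidine against control. Under cyclic loess the TPP2 change in combined against control was -0.27 and did not pass (adjusted p = 0.134). TAPBPL, a tapasin homologue that edits peptides away from the transporter, fell by 0.54 in combined against control (adjusted p = 0.00678), and its 0.30 with azacytidine did not pass (adjusted p = 0.1). CALR, the chaperone calreticulin, rose by 0.39 with azacytidine (adjusted p = 0.0225), which under median scaling was 0.17 and did not pass (adjusted p = 0.417). ERAP2, an aminopeptidase of the endoplasmic reticulum, was read by 2 probes called in opposite directions in combined against control (-0.83 and 0.41).

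Regulators of class I transcription were split. Of 10 tested, 4 rose and 4 fell in combined against control and 3 rose and 3 fell with azacytidine, with medians of -0.01 and -0.21, beside 32.5% higher and 36% lower, and 32% higher and 30.8% lower, over all genes. Under median scaling 1 rose and 4 fell in combined against control, and 1 rose and 3 fell with azacytidine. RFX5, the DNA-binding subunit of the complex on class I and class II promoters, fell by 0.89 and 0.78 (adjusted p = 1.91e-06 and 8.17e-06), and IRF1, an interferon-induced activator, rose by 0.68 and 0.57 (adjusted p = 4.58e-05 and 0.000265). RFXANK rose by 0.40 and 0.54 on its brightest probe, but in combined against control it turned negative under median scaling, as did CREB1 and NFKB1. With azacytidine RFXANK was 0.33 under that scaling and did not pass (adjusted p = 0.114). In combined against control the 3 RFXANK probes ranged from -0.21 to 0.40, and the 3 CREB1 probes from -0.17 to 0.34. RFXAP fell by 0.49 in combined against control, which under cyclic loess was -0.26 and did not pass (adjusted p = 0.0595). EZH2, the methyltransferase of Polycomb repressive complex 2, fell by 0.54 and 0.75 on its brightest probe, while its 3 probes ranged from -0.76 to 0.41 and from -0.88 to 0.21. NLRC5, the class I transactivator, was below the detection filter and was not tested.

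Interferon receptors and signalling genes also split, while interferon-induced genes mostly rose. Of 7 receptor and signalling genes tested, 2 rose and 4 fell in combined against control and 2 rose and 3 fell with azacytidine. Under median scaling none rose and 4 fell in combined against control, where IFNAR1 (0.33, adjusted p = 0.107) and TYK2 (0.16, adjusted p = 0.367) did not pass, and 2 rose and 2 fell with azacytidine. IFNAR1, a type I interferon receptor chain, rose by 0.61 and 1.11, TYK2, its kinase, rose by 0.57 and 0.69, and IRF9, the DNA-binding part of the factor ISGF3, fell by 0.85 and 0.39, the second of which did not pass under median scaling (adjusted p = 0.0537) or cyclic loess (adjusted p = 0.0817). IFNAR2, the partner chain, was read by 2 probes called in opposite directions (-0.55 and 0.64 in combined against control). Of 14 interferon-induced genes, 9 rose and 3 fell in combined against control and 9 rose and 4 fell with azacytidine, with medians of 0.94 and 0.95 (0.87 and 0.72 with the genes that have only a bound set at it). Over all genes 32.5% were higher and 36% lower in combined against control, and 32% and 30.8% with azacytidine. OAS3, counted as higher with azacytidine by its brightest probe, was read by 2 probes called in opposite directions there (-0.45 and 0.25). HERC5, an ISG15 ligase, was at least 6.18-fold and 3.98-fold higher in combined and azacytidine than in control arrays, where it was not well above background (adjusted p = 4.57e-11 and 3.2e-10). By the same bound IFI27 was at least 4.84-fold and 4.64-fold higher, and BST2, the virus tether tetherin, at least 4.55-fold and 2.44-fold. ISG15, a ubiquitin-like modifier, rose by 2.53 and 2.67 on the log2 scale. These bounds set the brighter mean against the lowest signal among detected probes. Of the 11 class I probes, 6 were called lower in each of the same 2 comparisons. They were not all the same probes, as HLA-E was called lower only with azacytidine and B2M probe 1 only with combined treatment. Over all probes 37.8% were lower in combined against control and 32.1% with azacytidine. The contrast between these gene lists was not tested.

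Class I-like molecules and ligands of natural killer receptors made up the last group, of which 6 could be tested. In combined against control 2 rose and 3 fell, and with azacytidine 1 rose and 3 fell, where 68.4% and 62.7% of all genes were called. These counts are near the background. MICB, a stress ligand of the receptor NKG2D, rose by 1.80 and 1.65 (adjusted p = 2.26e-05 and 5.95e-05), and MICA, at 0.14 and 0.05, did not pass. ULBP1, another NKG2D ligand, fell by 0.98 and 1.30, and FCGRT, the heavy chain of the neonatal Fc receptor that also pairs with B2M, fell by 0.78 and 1.25. RAET1L was at least 1.63-fold lower in both comparisons, where combined and azacytidine arrays were not well above background. RAET1G was at least 1.08-fold higher in combined against control (adjusted p = 1.44e-06) and was not called with azacytidine. TSA alone called none of the 54 tested genes of these lists by limma, 2 of them (ISG15 and FCGRT) had an unadjusted p under 0.05, and 0.127% of all genes were called.

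**Figure D5:**
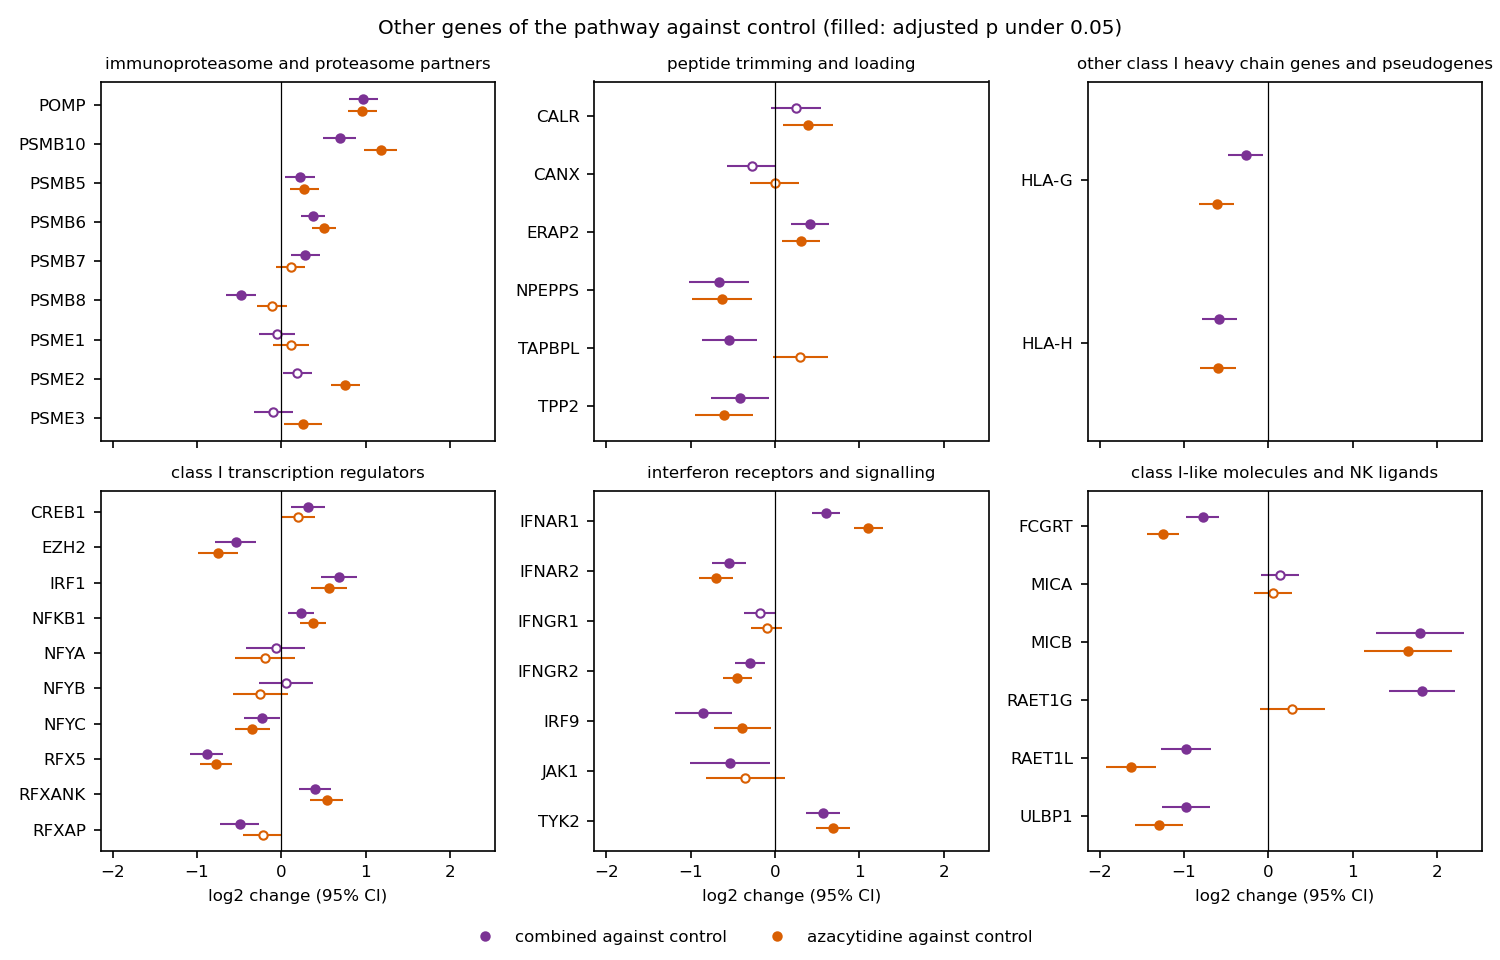
Log2 change against control with 95% confidence intervals for the tested genes of 6 pathway lists, combined and azacytidine arrays drawn in 2 colours and filled where the adjusted p was under 0.05. POMP and PSMB10 lie farthest to the right among proteasome genes, and RFX5 lies farthest to the left among the regulators. MICB, and in combined arrays also RAET1G, lie to the right of ULBP1, RAET1L and FCGRT. RAET1L, and RAET1G in combined arrays, are drawn at their estimates, although the text gives only bounds for them.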

How the data were processed

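For every array the authors deposited a linear intensity of each probe, not normalized between arrays, and beside it a detection p-value, as named per the file headers. The submitters' processing notes name GenomeStudio. A second deposited table holds log2 values processed by the authors, for which the processing notes name lumi 2.6.0. The transform, any further step and the genome build are not given in the sources used here. Intensities were background-corrected with limma 3.58.1 in R 4.3.3 (normal-exponential model with detection p-values, offset 16), put on the log2 scale and quantile-normalized. A probe was kept where 3 or more of the 12 arrays gave it a detection p below 0.01. Group means of all 4 groups were fitted per probe with lmFit and eBayes on 8 residual degrees of freedom, and 2-sided p-values were adjusted by Benjamini-Hochberg over all 13915 probes of a comparison, with a threshold of 0.05. A probe is called here when its adjusted p is below that threshold. The code was tested on simulated data. Each chip alone, chip as a block, other scalings, filters and fits, and leaving out each array were tried as alternatives.

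Probes were named from the platform annotation, in which 27577 probes have 1 gene symbol and 13 have several. Symbols were kept as given there, and 27540 probes matched the RefSeq gene table by Entrez ID. Member probes are numbered by probe ID within a gene. In the pathway lists each gene is represented by its brightest tested probe, and up to 4 called genes with the largest change in a comparison are named, beside any whose probes disagree or that did not pass but bear on a sentence. The likest genes are those with the smallest root mean square difference. The members and lists were chosen with earlier results of these data known. The deposited table also held 1 row of values without a probe ID, which was left out.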

Additional observations from a re-analysis of the deposited data

Results flagged for a closer look

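The change with azacytidine differed with and without TSA for 3 of the 11 class I probes, by a test of the difference itself in the limma fit (combined against TSA minus azacytidine against control, Benjamini-Hochberg adjustment over 13915 probes). For HLA-F probe 1 the difference was 0.71 (adjusted p = 0.0156), from a change of 0.44 with TSA and -0.27 without it. It kept its call without each of the 12 arrays in turn (0.59 to 0.83) and lost it under median scaling (0.44, adjusted p = 0.252). HLA-F probe 2 gave 0.14 (adjusted p = 0.463).

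For HLA-E the difference was 0.43 (adjusted p = 0.0479), from 0.16 with TSA and -0.27 without it. The call was lost without 10 of the 12 arrays in turn (highest adjusted p = 0.11) with the replicate number as a block (adjusted p = 0.0563) and under median scaling (0.15, adjusted p = 0.684). For TAPBP the difference was -0.50 (adjusted p = 0.0206), from -1.34 with TSA and -0.84 without it. It was lost without TSA replicate 3 (-0.43, adjusted p = 0.0503), under cyclic loess (-0.38, adjusted p = 0.0906), under median scaling (-0.72, adjusted p = 0.054) and without a filter on dim probes (adjusted p = 0.0578). On chip 2 alone it was -0.80 (adjusted p = 0.0574) and on chip 1 alone -0.34 (adjusted p = 0.354).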

How the results depend on the processing

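Of 1693 log2 changes of member probes recomputed under 26 alternatives, 1587 kept their side of the threshold, 69 lost a call, 35 gained a call and 2 reversed. Of the 1587, 752 were called and kept their direction, and 40 that passed in neither setting had the opposite sign. The 2 reversals were TAP1 in combined against control (-0.0825) and in combined against TSA (-0.0867), both under median scaling. Median scaling moved the median of all probes to -0.33 in combined against control, -0.15 in azacytidine against control, 0.10 in TSA against control, -0.17 in combined against azacytidine, -0.45 in combined against TSA and -0.29 in the interaction, and shifted the calls to the lower side. Of the calls, 2247 were higher and 6240 lower in combined against control (4288 and 5254 with quantile normalization), 2441 and 4300 in azacytidine against control (4202 and 4465), 841 and 1710 in combined against azacytidine (2062 and 2645), 1921 and 7316 in combined against TSA (4303 and 5317), and 441 and 861 in the interaction (1446 and 1493). Cyclic loess gave 2271 and 1758 in combined against azacytidine, and 1631 and 919 in the interaction. The cause was not tested.

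Over all probes, TSA against control called 14, with 28 under median scaling, 22 with trend and robust moderation, 3 with the replicate block, and 0 with a detection p under 0.05, without a filter, on chip 1 alone, on chip 2 alone or with only the groups compared, and 0 to 31 without 1 array. Combined against azacytidine called 4707, with 2551 under median scaling and 932 on chip 1 alone. The interaction called 2939, with 1302 under median scaling, 530 on chip 1 alone and 608 on chip 2 alone. A chip alone holds 6 arrays, and a group with 1 array there was assumed to vary like the others.

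Over member probes, combined against azacytidine called 5, with 2 under median scaling, 0 on chip 1 alone and 4 to 5 without 1 array. The interaction called 3, with 5 without background correction, in the authors' processed values, with array weights and with trend and robust moderation, 6 with chip as a block, 1 without a filter, 0 under median scaling and on either chip alone, and 1 to 4 without 1 array. Without 1 array the member counts were 7 to 9 in combined against control, 6 to 9 in azacytidine against control, 9 in combined against TSA and 0 in TSA against control.

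The labels give the replicate numbers no shared origin, but the 4 arrays numbered 1 lay on chip 1 and the 4 numbered 3 on chip 2. Deviations of same-numbered arrays correlated at -0.28 to 0.42, and 11 of 18 pairs were above 0.1, each between arrays of the same chip. With the replicate block the member calls were 8 in combined against control, 8 in azacytidine against control, 0 in TSA against control, 5 in combined against azacytidine, 9 in combined against TSA and 3 in the interaction. The 5 probes detected on no array limit what can be said of other transcripts of HLA-C, TAP2, TAPBP and PSMB9.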
